A study of Mus musculus with 9 samples.

Results

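The genes described here are 10 transcription factors of salivary epithelium: Bhlha15, Spdef, Creb3l1, Sox10, Sox2, Sox9, Ascl3, Elf5, Ehf and Klf5. They were chosen by name as regulators of secretory, progenitor and duct cells, with earlier results of these data known. The count tables hold 54532 genes, and all 10 were among the 15348 that passed the filter on low counts. Their RNA was measured by RNA-seq in the sublingual gland, the mucous salivary gland under the tongue, of wild-type (WT) mice. The 9 libraries were 3 controls without radiation, 3 glands taken 7 days after 10 Gy of radiation and 3 taken 14 days after it. RNA came from thick tissue sections of whole gland, so all cell types of the gland contribute to each value. The labels give neither the age nor the sex of the mice, and do not say whether each library is a separate animal. The p-values therefore reflect the scatter among these libraries, part of which may be technical.

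Secretory acinar cells, ducts and contractile myoepithelial cells make up the salivary epithelium, and transcription factors of a few families hold each state. Bhlha15 (MIST1), a basic helix-loop-helix factor, organises the granules and endoplasmic reticulum of exocrine cells. Spdef, an Ets factor, drives the maturation of mucous and goblet cells, and Creb3l1 (OASIS) is held in the membrane of the endoplasmic reticulum and cut free to raise secretory capacity. Sox2, Sox9 and Sox10 mark salivary progenitors, and Sox2 in particular marks progenitors of sublingual acini. Ascl3 marks a subset of duct cells, Elf5 and Ehf are epithelial Ets factors, and Klf5 is a zinc finger factor of proliferating epithelium.

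The tissue check placed the libraries as mucous salivary gland. Muc19, the main mucin of the gland, lay between 30293 and 46252 CPM (counts scaled by TMM to a shared library size), and Ckm of skeletal muscle was below 1 CPM in each library. Total counts were 15962399 to 19441239 per library, and 3 counts corresponded to 0.154 to 0.188 CPM. The 20 most abundant genes held 37.1 to 38.6% of counts in controls, 31.0 to 32.0% at day 7 and 32.7 to 34.3% at day 14. Across genes, the log2 change at day 7 was related to exon length (Spearman rho 0.42 over 15343 genes, which are not independent replicates), and at day 14 likewise (rho 0.34). Values after a correction for length and GC content are therefore given for the factors where it ended or added a call, and counts after it are given for lists of genes whose calls it changed. Control library 3 was the highest of the 9 in the summed level of 17 granular duct markers, genes of the neighbouring submandibular gland. It had 4933 CPM against 2807 and 3320 CPM in the other controls. Single genes differed more in it: Klk1b26 of this list had 206 CPM against 14.1 and 20.5. Prol1, counted among the acinar markers, had 8369 CPM against 469 and 726. Day 14 library 2 was above the other libraries of day 14 for both genes. It had 54.8 CPM against 12.9 and 13.5 for Klk1b26, and 1723 against 5.78 and 177 for Prol1. Its Klk1, at 1381 CPM, was below theirs.

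Promoter sequence of GRCm38.p6 was at hand from RefSeq for 5 of the 10 factors, all of them called at day 7. Those of Bhlha15 and Spdef, the secretory factors that fell, and of Sox2, which rose, are shown. Each run is the 250 bases before the start of transcription, read 5′ to 3′ on the strand of the gene. Capitals mark GGAAG, 1 form of the Ets core, or, where it lies on the other strand, its reverse complement. Other forms of the Ets core are not marked.
Bhlha15, chr5:144190036-144190285 (+): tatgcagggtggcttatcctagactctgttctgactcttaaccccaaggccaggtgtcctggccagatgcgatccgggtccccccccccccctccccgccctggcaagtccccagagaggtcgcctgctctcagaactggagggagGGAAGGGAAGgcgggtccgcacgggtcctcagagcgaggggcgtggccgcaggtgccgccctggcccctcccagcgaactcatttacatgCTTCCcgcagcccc
Spdef, chr17:27728952-27729201 (-): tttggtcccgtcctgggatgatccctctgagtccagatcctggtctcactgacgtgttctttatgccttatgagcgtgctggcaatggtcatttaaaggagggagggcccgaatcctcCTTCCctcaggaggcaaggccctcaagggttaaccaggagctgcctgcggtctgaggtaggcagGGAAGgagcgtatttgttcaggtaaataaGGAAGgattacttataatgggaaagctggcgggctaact
Sox2, chr3:34649745-34649994 (+): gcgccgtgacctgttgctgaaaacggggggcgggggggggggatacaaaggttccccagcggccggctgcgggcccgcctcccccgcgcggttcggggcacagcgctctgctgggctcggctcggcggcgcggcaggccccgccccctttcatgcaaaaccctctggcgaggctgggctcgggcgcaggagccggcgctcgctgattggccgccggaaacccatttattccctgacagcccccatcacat
Bhlha15 and Spdef each held 3 matches of GGAAG and Sox2 held none of this form. Ascl3, which fell, held no GGAAG, and Elf5, which fell, held 1 in the first of its windows and none in the other. Only Sox2 of these 5 factors rose, so a relation between GGAAG matches and direction of change could not be assessed and was not tested. The first bases of those in Bhlha15 lie at −104, −99 and −14 (−1 being the last base before the start), and of those in Spdef at −132, −68 and −39. Of all 32817 promoter windows of this length, 64.1% hold at least 1 GGAAG on either strand, so its presence is common. Another Ets form, GGATG, was found 1 time each in Ascl3, Spdef and the first window of Elf5. It was not found in Bhlha15 or Sox2, and 37.3% of windows hold it. The E-box CANNTG, the site class of basic helix-loop-helix factors, occurred 3 times before Bhlha15 and not before Spdef or Sox2, with 1 before Ascl3 and 4 and 1 in the windows of Elf5, and 66.2% of windows hold it. The Creb3-type core TGACGT was found in Spdef at −201, and 6.46% of windows hold it. A Sox-type core, ACAAAG, was found in Sox2 at −206, and 16.5% of windows hold it. In the windows shown, none of these matches overlapped a match of another of the motifs named here. They are letter matches on both strands and no measure of binding. The RefSeq start used for Sox2 lies upstream of its start in GENCODE M21.

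Levels of different genes were compared per length of exon, as CPM per kilobase. In controls Creb3l1 was highest at 791 ± 45.0 CPM per kilobase (mean ± SD, n = 3), followed by Spdef at 331 ± 62.8, Ehf at 151 ± 6.09 and Bhlha15 at 126 ± 8.33. Next came Sox2 at 49.4 ± 2.78, Sox9 at 41.6 ± 2.34 and Sox10 at 22.1 ± 0.877, and last Klf5 at 16.4 ± 1.48, Ascl3 at 13.8 ± 5.45 and Elf5 at 13.4 ± 0.406 CPM per kilobase. Creb3l1 and Spdef thus lay at the top of the order, and Ehf stood above Bhlha15. Neighbours in this order did not overlap between libraries, except Klf5 with Ascl3 and Ascl3 with Elf5. At day 7 the order was the same down to Sox9, while Klf5 (20.1 ± 3.60) stood above Sox10 (16.04 ± 0.943 CPM per kilobase), with overlapping libraries. At day 14 Sox10 was again above Klf5, and no neighbours overlapped.

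**Figure D1:**
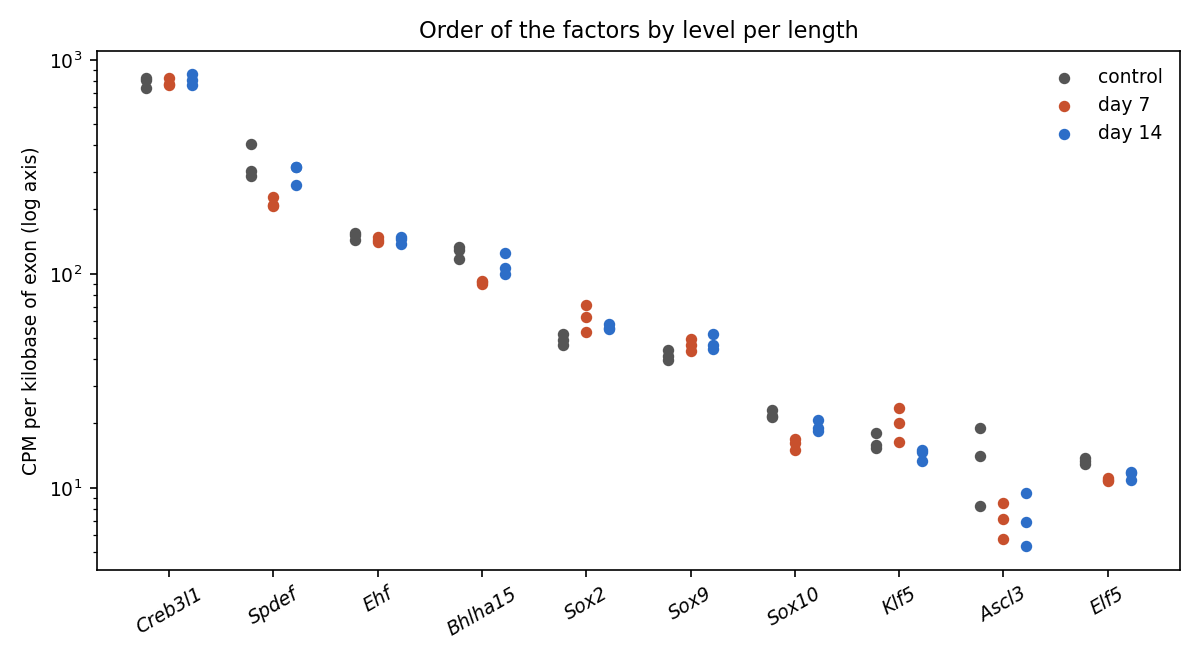
Level of each factor per length in the 9 libraries. The vertical axis is TMM-scaled CPM per kilobase of exon on a log scale, the horizontal axis lists the factors in their control order, and each point is 1 library of control, day 7 or day 14. Creb3l1 lies between 739.8 and 856 CPM per kilobase in all 3 groups, and Ascl3 shows the widest spread among controls.

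Within their families these factors were among the leading members in control gland. Sox2, Sox9 and Sox10 were the 3 highest of 19 Sox genes per length, and Sox13 came next at 18.2 ± 1.83 CPM per kilobase. Spdef and Ehf were the highest of 23 Ets genes, and Elf5 ranked 6. Creb3l1 made up 78.4% of the summed level of the 5 Creb3 genes, followed by Creb3l4 at 172 ± 16.5 CPM per kilobase. Klf5 was second of 17 Klf genes, below Klf15 at 61.9 ± 7.92 CPM per kilobase.

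Day 7 after radiation was compared with control to find which of the factors had changed. Spdef, Bhlha15, Sox10, Ascl3 and Elf5 were lower and Sox2 was higher, while Creb3l1, Ehf, Sox9 and Klf5 did not pass the test. A gene is called when its adjusted p from edgeR's quasi-likelihood test, adjusted over all 15348 genes, is under 0.05. In all, 6 of the 10 factors were called, and 30.6% of all tested genes were called in this comparison. The 5 lower calls stand beside 14.8% of all genes called lower, and the single higher call beside 15.8% called higher. As the factors were chosen with earlier results of these data known, these shares give no unbiased comparison. The libraries of control and day 7 did not overlap for 5 factors, Bhlha15, Spdef, Sox10, Sox2 and Elf5, as for 43.9% of all genes. The median log2 change of the 10 factors was −0.17, and that of all tested genes 0.02. In sections of whole gland, fewer cells of a type and less RNA per cell cannot be told apart, and this holds for each change below.

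**Figure D2:**
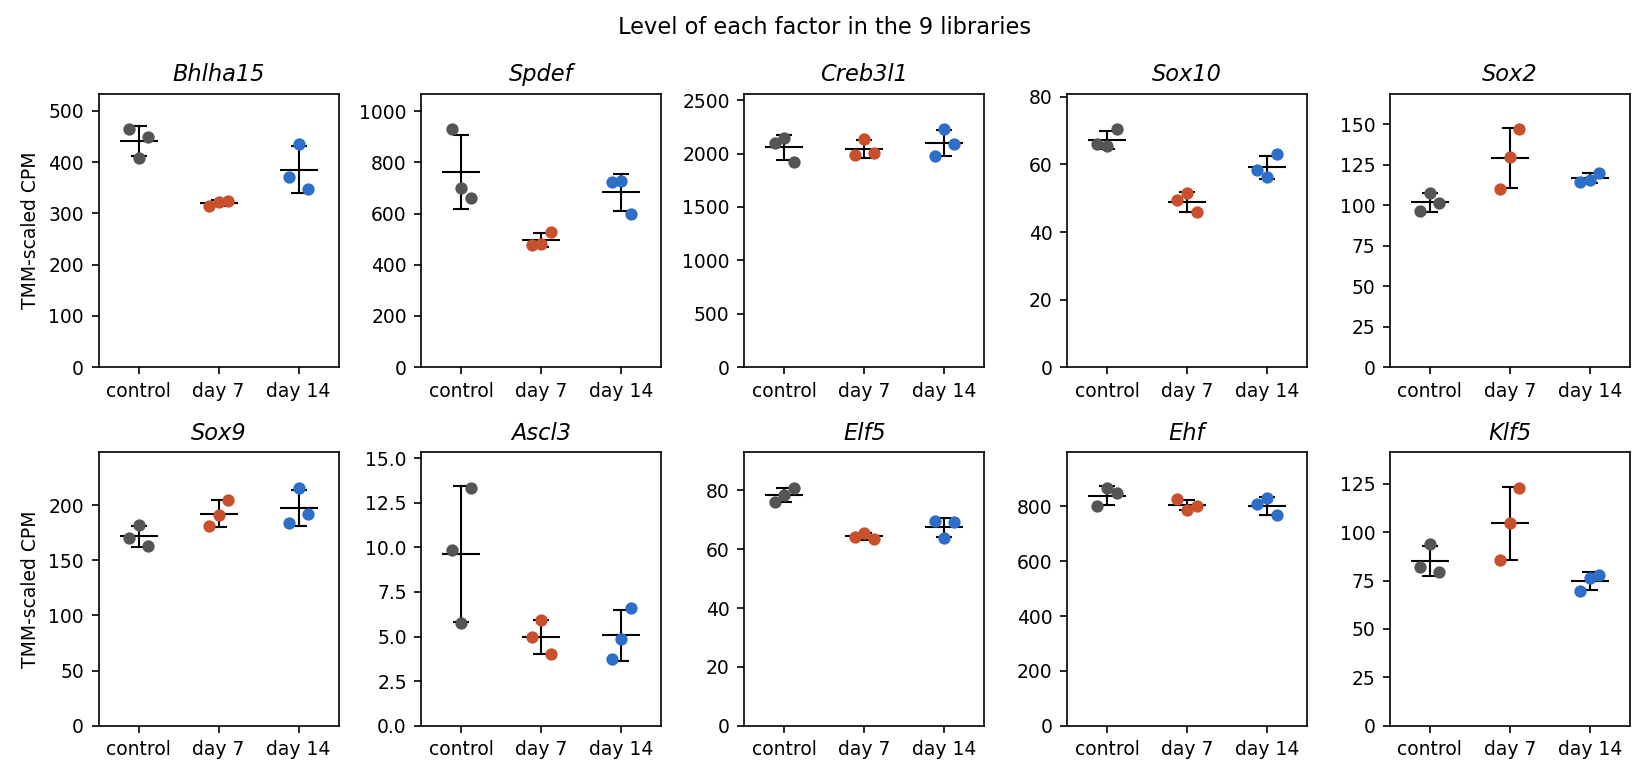
Level of the 10 factors in each library. The vertical axes are TMM-scaled CPM starting at 0, points are libraries, and lines are the mean and SD of 3 libraries. Day 7 libraries of Bhlha15, Spdef, Sox10 and Elf5 lie below all controls, and those of Sox2 lie above them.

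Spdef, the mucous cell factor on chromosome 17 (27714352 to 27728955, GRCm38), had 930, 700 and 662 CPM in the controls, 479, 483 and 530 at day 7, and 724, 726 and 599 at day 14. All day 7 libraries were below all controls, and control library 1 was above the others. Its log2 change at day 7 was −0.62 (SE 0.117, 95% interval −0.87 to −0.37, adjusted p = 0.000768), which is 65.1% of the control mean. With the correction for length and GC it was −0.36 (adjusted p = 0.0205), smaller and still called.

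Bhlha15, the factor of exocrine secretory architecture on chromosome 5 (144190286 to 144194441), had 464, 408 and 450 CPM in controls, 314, 322 and 325 at day 7, and 371, 436 and 347 at day 14. The day 7 libraries lay close together and below all controls. The log2 change was −0.46 (SE 0.0950, 95% interval −0.66 to −0.26, adjusted p = 0.00135), or 72.6% of the control mean. Spdef and Bhlha15 were called at day 7 under each of the 18 alternatives tried. Plasma cells also carry Bhlha15. Of 10 tested plasma cell markers 3 fell (Derl3, Ighm and Mzb1) and none rose at day 7, and none of the 3 calls was kept after the length and GC correction. The summed markers ran from 1506 to 2249 CPM in controls, 1113 to 1286 at day 7 and 1114 to 2143 at day 14. Most of that sum was Txndc5, and the other 10 genes had 262 to 1140 CPM in controls, 56.0 to 303 at day 7 and 75.1 to 974 at day 14. Acinar markers were mixed: 7 of 16 fell, 2 rose and 7 were not called. Their sums were 214243 to 293034 CPM in controls, 158517 to 166859 at day 7 and 201393 to 207892 at day 14. Most of that was the secreted products Dcpp1, Dcpp2, Dcpp3 and Muc19. The transporter gene Slc12a2 rose from 432 to 693 CPM in controls to 793 to 1061 at day 7. The channel gene Ano1 rose from 93.9 to 111 CPM to 163 to 180. After the correction 5 acinar markers were lower and 1 higher. The part of these cells in the changes of Spdef and Bhlha15 was not tested.

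Creb3l1, on chromosome 2 (91982328 to 92024502), showed no change past the test. It had 2104, 2147 and 1926 CPM in controls, 1986, 2138 and 2010 at day 7, and 1980, 2228 and 2089 at day 14. The 3 groups overlapped fully. The log2 change at day 7 was −0.01 (95% interval −0.19 to 0.17, adjusted p = 0.947), and with the length and GC correction it was 0.22 (adjusted p = 0.130).

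Among the Sox factors, Sox10 and Sox2 moved in opposite directions at day 7. Sox10, on chromosome 15 (79154908 to 79165240), had 66.0, 65.6 and 70.4 CPM in controls, 49.4, 51.5 and 45.8 at day 7, and 58.3, 56.4 and 63.0 at day 14. All irradiated libraries lay below all controls, and those of day 7 were lowest. Its log2 change at day 7 was −0.46 (SE 0.0974, 95% interval −0.66 to −0.26, adjusted p = 0.00165). The call was lost with the length and GC correction, at −0.27 (adjusted p = 0.0514). Schwann cells, the glia of nerves, also carry Sox10. Of 14 Schwann markers 2 rose (Erbb3 and Cdh19) and none fell, with sums of 230 to 269 CPM in controls, 301 to 309 at day 7 and 259 to 278 at day 14. Of these calls the length and GC correction left that of Erbb3. Erbb3, which epithelium also expresses, went from 121 to 174 CPM and made most of that rise. The part of Schwann cells in the change of Sox10 was not tested.

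Sox2, on chromosome 3 (34650405 to 34652461), had 96.1, 108 and 101 CPM in controls, 110, 130 and 147 at day 7, and 114, 115 and 120 at day 14. All irradiated libraries were above all controls, and day 7 library 3 was the highest. The log2 change at day 7 was 0.34 (SE 0.101, 95% interval 0.13 to 0.55, adjusted p = 0.0148), or 127% of the control mean. With the length and GC correction it was 0.51 (adjusted p = 0.000367). It rested on single libraries in part: the change was 0.24 (adjusted p = 0.105) without day 7 library 3 and 0.30 (adjusted p = 0.0607) without control library 1. Sox2 lies within the longer non-coding gene Sox2ot on the same strand, so reads in the shared stretch may be split or left uncounted. Sox2ot itself had 12.2 CPM in controls, 15.1 at day 7 and 12.5 at day 14, and was not called at day 7 (log2 0.32, adjusted p = 0.218).

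Sox9, on chromosome 11 (112782224 to 112787760), had 170, 182 and 163 CPM in controls, 181, 191 and 205 at day 7, and 184, 216 and 192 at day 14. Day 7 libraries overlapped the controls, and the change did not pass the test (log2 0.16, 95% interval −0.03 to 0.35, adjusted p = 0.186). Stromal cells may also hold Sox9 and Creb3l1. Of 10 fibroblast markers 4 rose at day 7 (Col1a2, Col1a1, Postn and Col3a1), with sums of 422 to 468 CPM in controls, 501 to 613 at day 7 and 490 to 635 at day 14. After the correction Col1a1 and Col1a2 were higher and Dcn was lower. Their part in the levels of Sox9 was not tested.

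Ascl3, on chromosome 7 (109727465 to 109731726), had the fewest counts of the 10. It had 9.88, 5.73 and 13.3 CPM in controls, 4.996, 5.93 and 4.03 at day 7, and 3.74, 4.83 and 6.61 at day 14, from 64 to 236 counts per library. Control library 2 fell among the irradiated libraries, and the other controls were above all of them. The log2 change at day 7 was the largest of the 10 and the least precise, at −0.96 (SE 0.282, 95% interval −1.55 to −0.36, adjusted p = 0.0159). It was no longer called with the length and GC correction (−0.59, adjusted p = 0.133), without control library 3 (−0.67, adjusted p = 0.0781), without day 7 library 1 (−0.96, adjusted p = 0.0523) or without day 7 library 3 (−0.82, adjusted p = 0.0670). Control library 3, the highest for Ascl3, was also the highest for the granular duct markers given above and for the ionocyte factor Foxi1, with 7.58 CPM against 2.44 and 3.17 in the other controls. None of 12 ionocyte markers was called by edgeR in any comparison. At an unadjusted p under 0.05, 0 of them passed at day 7, 4 at day 14 against control and 3 between the time points. Of all 15348 tested genes 6296, 3271 and 3479 passed in these comparisons. The median log2 change of the 12 ionocyte markers was −0.22 at day 7 and −0.49 at day 14. After the correction 1 was called lower at day 7 and 1 between the time points. Tfcp2l1 made up most of their summed level, and the other 11 genes had 81.7 to 101 CPM in controls, 74.3 to 89.5 at day 7 and 48.9 to 79.4 at day 14. The granular duct sums were below all controls in every irradiated library, as 1780 to 1920 CPM at day 7 and 1765 to 2343 at day 14. Klk1 made up most of these sums. The other 16 genes had 269 to 698 CPM in controls and overlapped between the groups. They had 306 to 330 CPM at day 7 and 285 to 383 at day 14. Of 16 tested granular duct markers 4 fell (Klk1, Klk1b9, Klk1b8 and Klk1b24) and 1 rose at day 7, with a median log2 change of −1.11 at day 7 and −0.83 at day 14, and 1 was called lower after the correction at day 7. Reads of the Klk1b genes may be split among near-identical copies. The part of submandibular or ionocyte tissue in the Ascl3 values was not tested.

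Elf5, on chromosome 2 (103411688 to 103450989), had 76.2, 78.6 and 80.9 CPM in controls, 64.0, 65.6 and 63.5 at day 7, and 69.5, 63.7 and 69.2 at day 14. Each irradiated library was below each control, with little spread in any group. The change at day 7 was small, at −0.29 on the log2 scale (SE 0.0903, 95% interval −0.48 to −0.10, adjusted p = 0.0214), or 81.9% of the control mean. It was −0.44 with the length and GC correction (adjusted p = 0.00062). The call was lost when any single day 7 library was left out (adjusted p = 0.0541 to 0.0643) and with no filter on low counts (adjusted p = 0.0533), while the change stayed between −0.30 and −0.28 in those fits.

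Ehf, another epithelial Ets factor, on chromosome 2 (103263433 to 103303278), had 802, 869 and 849 CPM in controls, 826, 788 and 802 at day 7, and 809, 832 and 767 at day 14. The groups overlapped, and the log2 change at day 7 was −0.06 (95% interval −0.23 to 0.11, adjusted p = 0.619). It became −0.39 and was called lower after the length and GC correction (adjusted p = 0.00383). Duct markers were mixed at day 7: 6 of 18 fell, Gstt1, Wfdc2 and Krt8 among them, and 2 rose. After the correction 2 were lower and 1 higher at day 7. Their sums were 2507 to 2664 CPM in controls, 2259 to 2618 at day 7 and 2324 to 2395 at day 14. The day 14 sums lay below all controls, and 1 duct marker was called lower at day 14, both before and after the correction.

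Klf5, on chromosome 14 (99298691 to 99315036), had 82.0, 94.0 and 79.6 CPM in controls, 85.5, 105 and 123 at day 7, and 69.5, 76.4 and 78.0 at day 14. The day 7 libraries spread widely and library 1 lay within the control range. The log2 change was 0.29 (SE 0.116, 95% interval 0.05 to 0.54, adjusted p = 0.0609), which missed the threshold. It passed without day 7 library 1 (0.42, adjusted p = 0.0128) and with no filter on low counts (0.30, adjusted p = 0.0296), and was 0.14 with the length and GC correction (adjusted p = 0.406). Markers of dividing cells rose at day 7, as Sox2 did: all 13 were called higher, 12 of them also after the length and GC correction, with sums of 10.3 to 24.9 CPM in controls, 94.8 to 153 at day 7 and 15.5 to 37.9 at day 14. Mki67, which marks cycling cells, had 1.83, 3.10 and 3.45 CPM in controls and 27.2, 39.8 and 29.2 at day 7. Of 12 tested basal and myoepithelial markers 4 rose (Itgb4, Itga6, Myh11 and Col17a1), while Krt5 had 48.0 to 61.0 CPM in controls and 49.0 to 50.1 at day 7. The part of dividing or basal cells in the values of Sox2 and Klf5 was not tested.

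**Figure D3:**
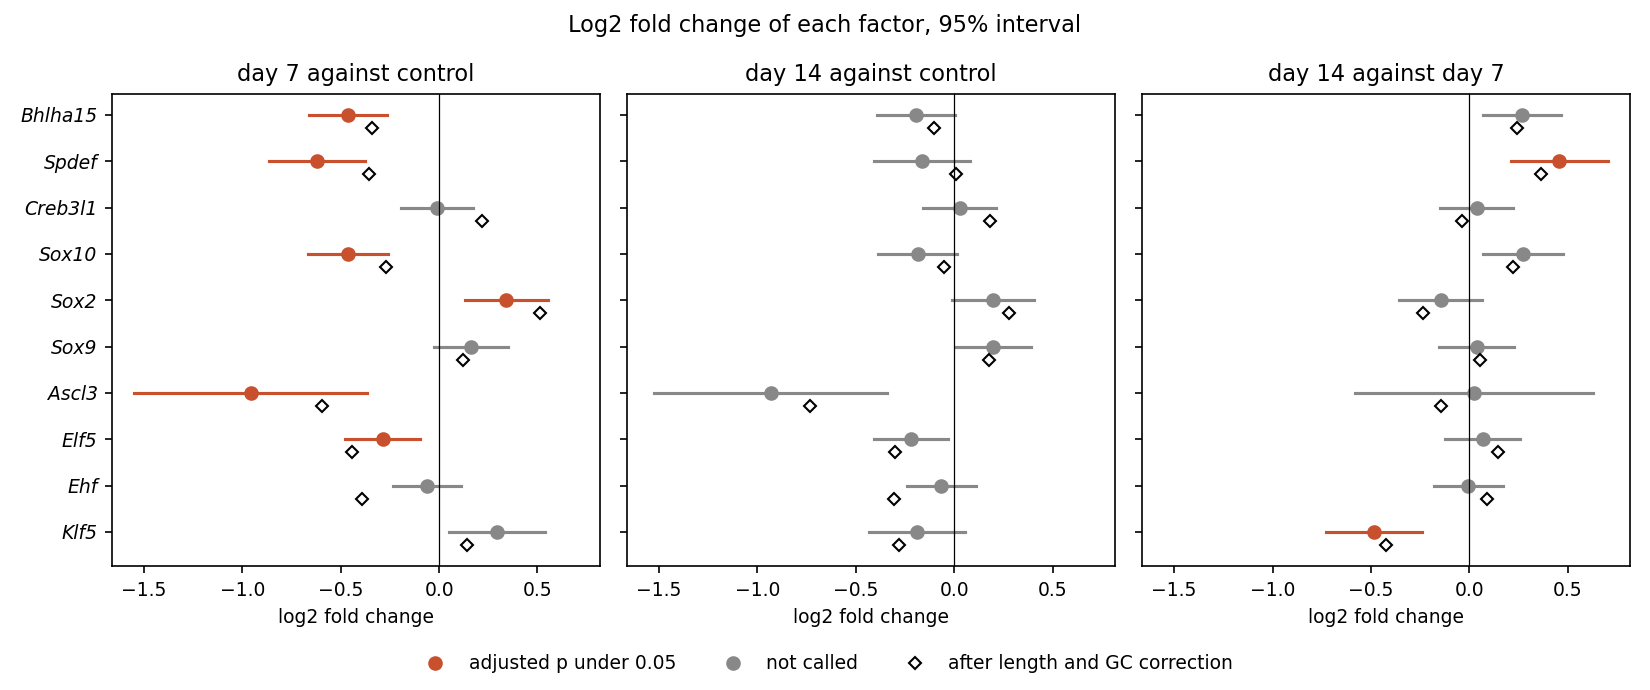
Log2 fold change of each factor in the 3 comparisons. Filled points are the change with its 95% interval from the fit on all 9 libraries, red where the adjusted p is under 0.05, and open diamonds are the change after the length and GC correction. Spdef and Bhlha15 lie below 0 at day 7 with both, and Ascl3 has the widest interval.

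**Figure D4:**
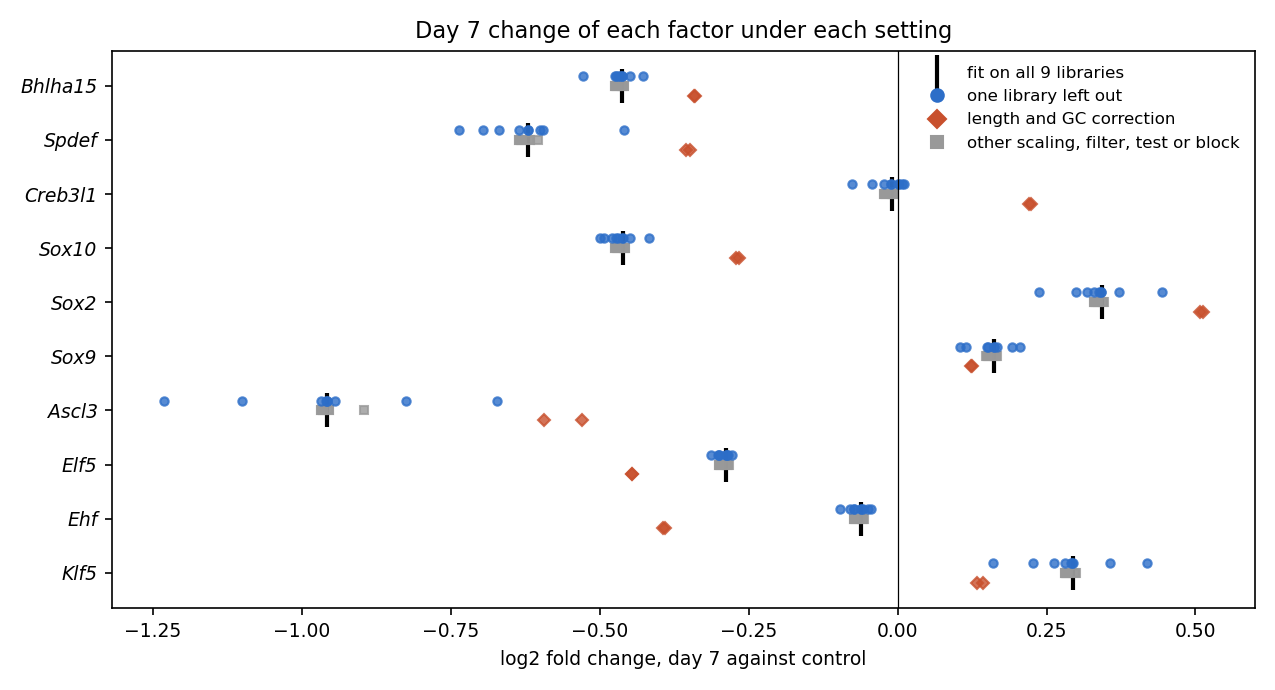
Log2 change of each factor at day 7 under each processing alternative. The horizontal axis is the log2 fold change against control, black bars are the fit on all 9 libraries, blue points leave out 1 library each, red diamonds carry the length and GC correction, and grey squares are other scalings, filters, tests or the replicate block. No called factor crosses 0, and Ascl3 varies most, from −1.23 to −0.53.

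The length and GC correction also moved the whole comparison. Before it, 51.6% of the 4692 genes called at day 7 were higher, and after it 34.9% of 3330, with 2492 genes called in both. Among the factors, 1 was called higher after it (Sox2) and 4 lower (Bhlha15, Spdef, Elf5 and Ehf). Of these, Ehf was not called before the correction. Among all 15348 tested genes 1163 were called higher and 2167 lower after it.

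Genes linked to the factors were counted at day 7 beside the background of all genes given above, 30.6% called, 15.8% higher and 14.8% lower. Of 12 genes linked to Bhlha15 in secretory cells 3 fell and 1 rose, a share near the background, with a median log2 change of −0.22. Those that fell were the coatomer gene Copz2 (325 to 207 CPM, log2 −0.65, adjusted p = 6.64e-05), the gap junction gene Gjb1 (106 to 79.0 CPM, log2 −0.43) and the secretory granule GTPase gene Rab26 (10.3 to 6.37 CPM, log2 −0.69). Ern1, a sensor of unfolded protein, rose from 71.8 to 114 CPM (log2 0.67, adjusted p = 0.0165). Of the 8 genes not called, some were named after their values were seen. Among them Xbp1, a factor of secretory capacity, had 1421 ± 44.1 CPM in controls and 1210 ± 77.2 at day 7 (adjusted p = 0.0517). The granule gene Rab3d had 697 ± 45.5 and 591 ± 40.8 CPM (adjusted p = 0.0571). Not all of the 8 were lower: Tpcn1 had 193, 181 and 203 CPM in controls and 225, 223 and 191 at day 7. After the length and GC correction 1 gene of this list was called in each direction. Of 7 partners and inhibitors of basic helix-loop-helix factors, 1 was called, Tcf12, rising from 35.8 to 63.3 CPM (log2 0.82, adjusted p = 0.000132).

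Of 20 genes linked to Spdef in mucous cells 10 passed the filter, and of these 4 rose and 2 fell at day 7, with a median log2 change of 0.0031. The pioneer factor gene Foxa1 rose from 179 to 284 CPM (log2 0.67, adjusted p = 0.000608). The mucus protein gene Fcgbp rose from 55.2 to 79.1 CPM (log2 0.52), and the mucin glycosylation genes Gcnt3 (log2 0.61) and Galnt6 (log2 0.60) rose as well. Muc19 fell from 42783 to 32956 CPM (log2 −0.38, adjusted p = 0.00479), and the disulfide isomerase gene Pdia5 fell from 121 to 99.2 CPM (log2 −0.29). Agr2, an isomerase of mucin folding that was not called and was named after its values were seen, had 70.5 ± 10.6 CPM in controls. It had 51.1 ± 10.8 CPM at day 7 (adjusted p = 0.0523). The goblet cell genes Muc5ac, Clca1, Tff1 and Tff3 had no count in any library, where 3 counts would be 0.154 to 0.188 CPM. After the length and GC correction Fcgbp and Pdia5 were not called, and Creb3l4, a relative of Creb3l1, was called higher (log2 0.40, adjusted p = 0.00419).

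Relatives of the factors were called in both directions at day 7. Of 9 other Sox genes tested 3 rose and none fell: Sox13 (78.4 to 106 CPM, log2 0.43, adjusted p = 0.00239), Sox4 (4.36 to 8.83 CPM, log2 1.02) and Sox5 (1.63 to 3.19 CPM, log2 0.96). Of 13 other Klf genes 5 rose and 1 fell, and Klf9, which responds to glucocorticoids, rose from 30.9 to 88.1 CPM (log2 1.51, adjusted p = 0.0203). Klf3 (log2 0.83), Klf7 (log2 1.16), Klf6 (log2 0.54) and Klf13 (log2 0.36) also rose, and Klf16 fell (log2 −0.46). Of 19 other Ets genes 4 rose and 2 fell. Etv1, an Ets factor of the PEA3 group, rose from 313 to 549 CPM (log2 0.81, adjusted p = 0.000681), as did Elf1 (log2 0.63), Etv3 (log2 0.61) and Gabpa (log2 0.76), while Elf3 (log2 −0.39) and Erf (log2 −0.47) fell. Of 7 other Creb3 and unfolded protein response factors none rose and 2 fell, Atf4 (444 to 298 CPM, log2 −0.57, adjusted p = 0.00210) and Atf6b (77.7 to 61.5 CPM, log2 −0.34). After the length and GC correction the calls were 2 higher for Sox genes, 3 higher for Klf genes, 3 higher and 1 lower for Ets genes, and 1 in each direction for the Creb3 group (Creb3l4 higher, Atf4 lower). The higher calls of these families can be read against the 15.8% of all genes called higher at day 7 before the correction.

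Of 35 other tested factors of salivary epithelium 7 rose and 4 fell. The smallest p-values were those of Pitx1, a factor of oral ectoderm, which fell from 290 to 198 CPM (log2 −0.55, adjusted p = 0.000449), and of Foxa1, Etv1 and Grhl2, which rose. Grhl2, a factor of epithelial barriers, went from 53.3 to 76.5 CPM (log2 0.52, adjusted p = 0.00129). Barx2 (log2 −0.49), Nkx2-3 (log2 −0.44) and Elf3 were the other genes that fell. After the length and GC correction 3 were higher and 2 lower. Of 21 genes of signals around salivary progenitors 9 rose and none fell. They were led by the receptor genes Notch2 (20.1 to 37.9 CPM, log2 0.92, adjusted p = 3.88e-05), Erbb3 (121 to 174 CPM, log2 0.53) and Notch1 (4.96 to 8.63 CPM, log2 0.80), and by Ctnnb1, the β-catenin gene (217 to 318 CPM, log2 0.55). The correction left 4 higher and 1 lower, Yap1. These lists share genes with each other and with the marker lists, so their counts are not independent.

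At day 14 the comparison with control asked how far the factors still stood from unirradiated gland. None of the 10 was called, against 1.76% of all tested genes (1.13% called higher and 0.632% called lower). At an unadjusted p under 0.05 in edgeR, 3 of the 10 passed, namely Sox9, Ascl3 and Elf5, as did 3271 of all 15348 tested genes. DESeq2 called 1 of the 10, Ascl3, and 1042 of all tested genes. The groups did not overlap for 5 factors, Sox10, Sox2, Sox9, Klf5 and Elf5, as for 23.1% of all genes. The median log2 change of the factors was −0.17 and that of all genes 0.01. This comparison shares its controls with that at day 7. Of the genes called at day 14, 64.1% were higher, and 42.3% after the length and GC correction, which left 142 called.

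Ascl3 had the largest value at day 14, with a log2 change of −0.93 (SE 0.282, 95% interval −1.53 to −0.34, adjusted p = 0.0784), or 52.4% of the control mean. Its adjusted p was 0.0242 with DESeq2 and 0.00458 with no filter on low counts, so the call depended on the tool and the filter. Elf5 was at 85.9% of control (log2 −0.22, adjusted p = 0.169) and Sox9 at 115% (log2 0.20, adjusted p = 0.211). Bhlha15 had a log2 change of −0.20 (95% interval −0.39 to 0.0023, adjusted p = 0.240), Spdef −0.16 (−0.41 to 0.08, adjusted p = 0.443) and Sox10 −0.19 (−0.39 to 0.02, adjusted p = 0.279). Sox2 was at 115% of control (log2 0.20, adjusted p = 0.266) and Klf5 at 87.6% (log2 −0.19, adjusted p = 0.361). With the length and GC correction, under which no factor was called either, the log2 change was 0.01 for Spdef, −0.05 for Sox10 and −0.30 for Ehf. Without it, Ehf (log2 −0.07, adjusted p = 0.695) and Creb3l1 (log2 0.03, adjusted p = 0.887) had intervals that spanned 0. In the related lists 3 genes were called at day 14: Copz2 (log2 −0.40) and Barx2 (log2 −0.50) were lower and Galnt6 (log2 0.68) was higher, and none of the 3 was called after the length and GC correction.

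Day 14 was then set against day 7. Spdef was higher and Klf5 lower at day 14, and the other 8 factors were not called. Among all tested genes 6.59% were called, 3.72% higher and 2.87% lower. Groups did not overlap for Bhlha15, Spdef, Sox10 and Klf5, as for 29.4% of all genes. The median log2 change of the 10 factors was 0.04, and that of all genes 0.0014. Spdef rose from 497 ± 28.3 to 683 ± 72.8 CPM (log2 0.46, SE 0.117, 95% interval 0.21 to 0.70, adjusted p = 0.0255), which brought it from 65.1 to 89.4% of its control mean. Klf5 fell from 104 ± 18.7 to 74.6 ± 4.55 CPM (log2 −0.48, SE 0.116, 95% interval −0.73 to −0.24, adjusted p = 0.0180). Both calls held with the length and GC correction, at 0.37 for Spdef (adjusted p = 0.0447) and −0.43 for Klf5 (adjusted p = 0.0288). They rested on 3 libraries a group: Spdef was not called without day 7 library 1 or 2 or day 14 library 1 or 2 (adjusted p = 0.101 to 0.116), nor Klf5 without day 7 library 2 or 3 or day 14 library 1 (adjusted p = 0.0688 to 0.0982).

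Bhlha15 (log2 0.27, adjusted p = 0.0963) and Sox10 (log2 0.28, adjusted p = 0.0937) had day 14 values above all those of day 7 without passing the test. Sox2 had a log2 difference of −0.14 (95% interval −0.35 to 0.06), and Ascl3 one of 0.02 with an interval from −0.58 to 0.63. Dividing cell markers fell with Klf5, 10 of 13 being called lower, and 3 acinar markers rose with Spdef (Dcpp1, Dcpp2 and Cldn10) while 1, Ano1, fell. After the length and GC correction none of those 3 acinar markers was called higher and Ano1 was still called lower. Their part in both changes was not tested. Of the relatives, Sox5 (log2 −1.42), Sox13 (log2 −0.34) and Klf11 (log2 −0.78) fell and Klf16 (log2 0.56) and Erf (log2 0.58) rose. Of the other salivary factors Pitx1 rose (log2 0.35) and Nr3c2 fell (log2 −0.55). Notch2 (log2 −0.62) and Ctnnb1 (log2 −0.34) fell among the signals around progenitors, and Fcgbp (log2 −0.53) fell among the genes linked to Spdef. The calls of Nr3c2, Ctnnb1 and Fcgbp were lost with the length and GC correction.

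The genes most like each factor were sought by the Pearson correlation of log2 CPM over the 9 libraries, among genes with a mean of at least 5 CPM. These correlations describe the libraries and include the differences between the 3 groups. Each gene named was picked as the highest among all such genes over only 9 libraries. High values of r can arise from this picking alone, and they were not tested. Spdef was most like Cyb561d2 (r = 0.99) and Snx8 (r = 0.99), and Bhlha15 was most like Spcs2, a subunit of the signal peptidase (r = 0.98), and Tomm40 (r = 0.97). For Sox10 they were Klc2 and Tmem189 (both r = 0.98), for Sox2 Mcm4, part of the replication helicase, (r = 0.98) and Cul4a (r = 0.97), and for Sox9 Pdxdc1 (r = 0.96) and Zfp119b (r = 0.95). Klf5 was most like Nr1d1, a factor of the circadian clock (r = 0.96), and Tada2a (r = 0.95), and Elf5 was most like Fnta and Hspbp1 (both r = 0.97). The likeness was weaker for Ascl3 with Usp39 (r = 0.91) and Rab11fip5 (r = 0.89), for Creb3l1 with Cldn23 (r = 0.90) and Plod1 (r = 0.89), and for Ehf with Dffa (r = 0.89) and Eif1ax (r = 0.87). Mcm4 itself rose at day 7 (log2 0.56, adjusted p = 0.0380), and Nr1d1 was not called (log2 0.22, adjusted p = 0.119).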

How the data were processed

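RNA-seq was deposited for 9 libraries as whole-number counts per gene, not normalized. Per the submitters' processing notes, the authors used STAR, featureCounts and DESeq2 with mm10, with versions, annotation and strand setting not given in the sources used here. Identifiers were matched to GENCODE M21 on GRCm38 (54495 of 54532), which also gave coordinates, counted from 1, and exon lengths. Promoters came from the RefSeq table on GRCm38.p6.

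Counts were tested with edgeR 4.0.16 in R 4.3.3 (filterByExpr, 39184 genes removed, TMM scaling, robust quasi-likelihood F test, two-sided, 3 groups, 6 residual degrees of freedom, Benjamini-Hochberg adjustment over all genes in each comparison). The fit was tested on simulated data. The biological coefficient of variation was 16.1%. Replicates within a group all differed by more than counting noise (chi-square statistic over its degrees of freedom 9.30 to 126), so none was treated as a library deposited again. This does not show that they are separate animals. The highest of these statistics, 126 and 88.1, were those of control library 3 against control libraries 1 and 2. Control libraries 1 and 2 gave 14.8 against each other. The correction for length and GC used splines with 5 degrees of freedom per library. Alternatives also covered scaling, filters, DESeq2 1.42.0, only the 6 libraries compared, the replicate block and each library left out. The factors and lists were chosen with earlier results of these data known. Named genes were all 10 factors, up to 4 called genes of smallest p per related list (all called genes where 5 or fewer were called, and a few others chosen after their values were seen), and the 2 genes most like each factor. Among the list genes, 1 (Ddit3) was not matched to 1 identifier and left out. Intervals of changes cover the spread between libraries, and the floor of 3 counts covers counting error only.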

Additional observations from a re-analysis of the deposited data

Results flagged for a closer look

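The level of 2 of the 10 factors differed between the time points by edgeR's quasi-likelihood test of day 14 against day 7, in which the shared controls cancel. Of all tested genes 6.59% were called in it. With 1 group of controls for both days, a change with time cannot be told apart from a change in the effect of radiation. Both calls were lost in some fits with a library left out, as given above. For Spdef the change against control at day 14 minus that at day 7 was 0.46 on the log2 scale (adjusted p = 0.0255). It went from −0.62 at day 7 to −0.16 at day 14, and all 3 day 14 libraries were above all 3 of day 7. For Klf5 the difference was −0.48 (adjusted p = 0.0180), from 0.29 to −0.19, and all 3 day 14 libraries were below those of day 7. Klf5 was called against control at neither day (adjusted p = 0.0609 and 0.361).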

How the results depend on the processing

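Over 18 alternatives and 3 comparisons, 514 of the factor values kept their direction, where called, and their side of the threshold, 20 lost the call, 6 gained it and 0 changed sign while called. At day 7 the count of factors called was 6, and 3 to 6 with a library left out (3 without day 7 library 3); the count of genes was 4692, and 3106 to 5314 with a library left out (3106 without day 7 library 1). At day 14 against control 1 factor in place of 0 was called with no filter on low counts and 1 with DESeq2. The 270 genes called there became 1300 with no filter, 1042 with DESeq2, 157 with only the 6 libraries compared, 142 with the length and GC correction, and 13 to 1937 with a library left out (13 without control library 1, 15 without control library 2, 1937 without control library 3). Between day 14 and day 7, 0 to 2 factors and 330 to 1415 genes were called with a library left out, against 2 and 1011; 0 factors were called without day 7 library 2 or day 14 library 1. Leaving out a library that leaves 2 in a group still estimates the spread over all groups. Residuals of same-numbered libraries correlated between −0.154 and 0.0743 over 9 pairs. Those of libraries with different numbers correlated between −0.119 and 0.218 over 18 pairs. The replicate numbers thus showed no sign of pairing, which does not show that none was used. With the replicate number as a block, 4319 genes and 6 factors were called at day 7, 113 genes and 0 factors at day 14 against control, and 746 genes and 2 factors between the time points; with the length and GC correction and the block together, 98 genes were called at day 14 against control. The causes of these shifts were not tested. Scaling moved the median of all genes by at most 0.02 on the log2 scale. Ascl3 had the lowest depth of the factors, at 64 to 236 counts per library.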
